A study of Mus musculus with 2 samples.

Results

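RNA-Seq levels of 10 genes of prostaglandin synthesis, breakdown and signalling were compared between a library of brown preadipocytes (D0) and a library of brown adipocytes made from them (D7). The genes were taken by their symbols from a table of 27324 rows, in which 23361 genes carried values. They are the cyclooxygenases Ptgs1 and Ptgs2, the prostaglandin synthases Ptges, Ptgis and Ptgds, the receptors Ptger2, Ptger3, Ptger4 and Ptgfr, and the breakdown enzyme Hpgd. All 10 carried values, and 9 were above 0 in both libraries. The design has 1 library per stage and 2 libraries in all, so no difference below was tested against replicates. The cells of both libraries came from interscapular brown adipose tissue of newborn mice, of strain C57BL/6 in the labels and C57BL/6J in the methods of the study. The labels call them primary cultures, whereas the methods of the study describe cells immortalized with a large T antigen. The methods name 4 animals of either sex, aged 1 day, and do not say whether their cells were pooled or how many animals stand behind each library.

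According to the labels, cells of both libraries were grown in DMEM with 20% serum. They were then kept for 4 days in DMEM with 10% serum, 0.1 μM insulin and 1 nM of the thyroid hormone T3. D0 is the end of that time. Cells for D7 then received indomethacin at 0.125 mM, which inhibits both cyclooxygenases, IBMX at 0.5 mM, which blocks the breakdown of cyclic AMP, and the synthetic glucocorticoid dexamethasone at 2 μg/ml. After 2 days this medium was replaced by one without these 3 agents. The methods of the study give other amounts of insulin, dexamethasone and serum. With these 2 libraries, the effect of the agents cannot be told apart from that of differentiation or time in culture.

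Prostaglandins are lipid signals made from arachidonic acid, which phospholipases release from membranes. A cyclooxygenase turns it into prostaglandin H2, and terminal synthases make prostaglandin E2, prostacyclin, prostaglandin D2 or prostaglandin F2α from that common precursor. Each product leaves the cell and acts on G protein-coupled receptors of the same or neighbouring cells, until uptake and oxidation by 15-hydroxyprostaglandin dehydrogenase (Hpgd) end the signal. In adipose tissue, prostaglandin F2α is known to restrain adipogenesis, prostacyclin to favour it, and prostaglandin E2 to limit lipolysis in adipocytes through the receptor EP3.

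The largest differences among the 10 genes were those of Ptgs2, Ptger3 and Hpgd. Ptgs2 was 77.9-fold lower at D7, whereas Ptger3 was 34.9-fold and Hpgd 17.4-fold higher. A gene was called at a D7 to D0 ratio of FPKM (fragments per kb of transcript, scaled to the reads of the library) of at least 2 or at most 0.5. Of the 9 genes above 0 in both libraries, 4 were called higher at D7 (Ptges, Ptger2, Ptger3 and Hpgd), against 18.5% of the 14986 genes above 0 in both. Another 3 were called lower (Ptgs1, Ptgs2 and Ptgis), against 13.2% of those genes, and Ptger4 and Ptgfr differed by less than 2-fold. By its own 2-fold rule on FPKM, the study counts more genes lower than higher at D7, unlike these shares. Ptgds was listed at 0 at D0. The median log2 ratio was -0.60 over the 9 genes and 0.02 over all 14986, and the summed FPKM of the 10 genes was 219 at D0 and 96.5 at D7.

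Each ratio is given with an exact 95% Clopper-Pearson interval, and each level with an exact 95% Poisson interval, on the number of fragments recovered from the FPKM values. Both cover counting error only, and they compare 2 libraries rather than 2 conditions. The recovered depths, which are the scaling totals inferred from the FPKM values, were 21471981 fragments at D0 and 18265650 at D7. Both are below the numbers of mapped reads that the study reports, and the reason was not examined. At these depths, 6 of the 10 genes had over 60 fragments in both libraries, and 4 (Ptgds, Ptger2, Ptger3 and Hpgd) had at most 10 fragments in the library with fewer. In bulk RNA, fewer cells of a type and less RNA per cell cannot be told apart. Of 10 brown adipocyte markers, 6 were called higher and 3 (Ucp1, Cidea and Elovl3) were above 0 at D7 alone. The remaining marker, Prdm16, had an FPKM of 0.835 in the D0 library and 1.02 in the D7 library. Its ratio of 1.22 (0.965 to 1.53) has an interval that includes 1. The study reports this gene as upregulated at D7 by qPCR. It also describes the patterns of brown-specific genes as similar in RNA-Seq and qPCR, without naming in its text the genes compared. The markers had a summed FPKM of 34.9 in the D0 library and 16160 in the D7 library. Most of the D7 sum was Fabp4, at 20.3 in the D0 library and 14391 in the D7 library. The culture at D7 also held 10 of 11 macrophage markers at over 2-fold higher levels, with a summed FPKM of 161 in the D0 library and 613 in the D7 library.

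**Figure D1:**
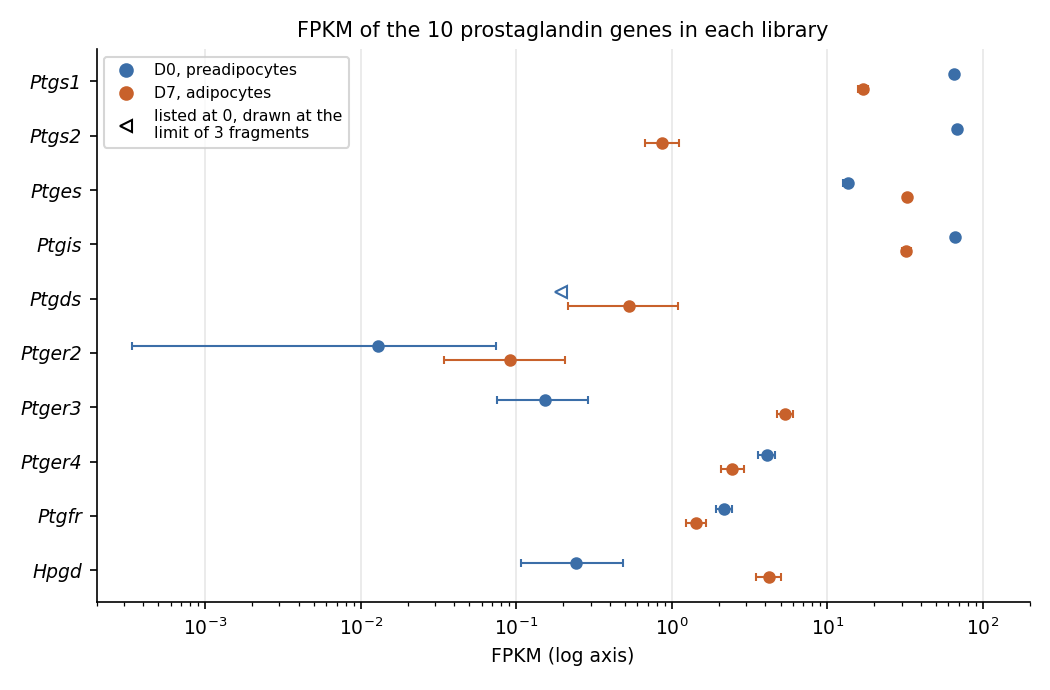
FPKM (log axis) of the 10 prostaglandin genes in the D0 library (blue) and the D7 library (orange), with exact 95% Poisson intervals for counting error and an open triangle for a gene listed at 0, drawn at the limit of 3 fragments. Ptgs1, Ptgs2 and Ptgis lie together between 65.3 and 67.8 at D0, where Ptger3 and Hpgd lie below 0.3, and at D7 Ptgs2 lies at 0.870 and Ptger3 and Hpgd lie above 4.

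The cyclooxygenases catalyse the committed step of the pathway. Ptgs1 (ENSMUSG00000047250.13, chr2:36230426-36252272, plus strand, mm10) encodes cyclooxygenase-1, the form that many tissues express constitutively. Its FPKM was 65.3 (63.3 to 67.5) at D0, from 3771 fragments, and 16.9 (15.8 to 18.1) at D7, from 831. The ratio of D7 to D0 was 0.259 (0.240 to 0.280), which is 3.86-fold lower at D7. Ptgs2 (ENSMUSG00000032487.8, chr1:150100031-150108227, plus strand) encodes cyclooxygenase-2, the form known for rapid induction by growth factors, serum and cytokines. Its FPKM was 67.8 (66.1 to 69.5) at D0, from 6221 fragments, and 0.870 (0.677 to 1.11) at D7, from 68. The ratio was 0.0128 (0.00997 to 0.0163), rank 10 from the lowest among 14986 genes. Among the genes above 0 in the same library, Ptgs2 stood at the level percentile 92.4 at D0 and 26.4 at D7, and Ptgs1 at 92.1 and 72.6.

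Because FPKM is a level per transcript length, the 2 cyclooxygenases can be set side by side within a library. At D0 the level of Ptgs1 was 0.964 times that of Ptgs2, with an interval of 0.925 to 1.00, so their levels did not differ beyond counting error. At D7 the level of Ptgs1 was 19.5 times (15.2 to 25.3) that of Ptgs2. Ptgs1 held 49.1% (48.1 to 50.1) of their summed FPKM at D0 and 95.1% (93.8 to 96.2) at D7. That sum was 133 at D0 and 17.8 at D7, 7.47-fold lower. The cyclooxygenase message left at D7 was therefore nearly all from Ptgs1, the gene with the smaller difference of the pair. A transcript annotated on the opposite strand (Gm43621) lies in the Ptgs1 locus, and for other genes below such transcripts are named as well. The methods describe degradation of the second cDNA strand, which keeps the strand of the RNA, but whether fragments were counted by strand is not given in the sources used here.

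**Figure D2:**
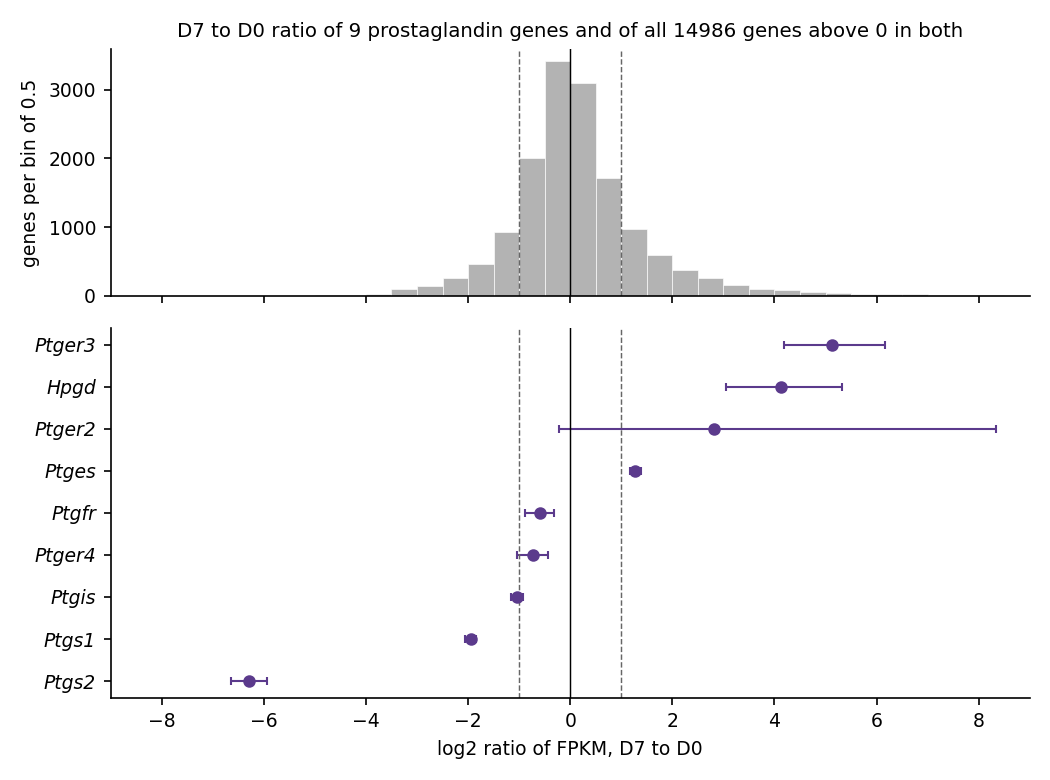
Top: number of genes per bin of 0.5 in the log2 ratio of D7 to D0 FPKM, over 14986 genes above 0 in both libraries, with the axis ending at -9 and 9 and the few genes beyond it not drawn. Bottom: the log2 ratio of 9 prostaglandin genes on the same axis, with exact 95% intervals for counting error and dashed lines at 2-fold, where Ptgs2 (-6.28) lies far to the left, Ptger3 (5.13) and Hpgd (4.12) lie far to the right, and the interval of Ptger2 crosses 0.

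The starts of 4 genes are shown because they mark the extremes of the comparison: Ptgs2 with the lowest ratio and Ptgs1 as its isoenzyme, and Ptger3 and Hpgd as the pair with the highest ratios. Each run is the RefSeq promoter on GRCm38.p6, from 250 bases before to 50 bases after the annotated start, and all 4 lie on the plus strand. Capitals mark a match on either strand to any of 6 motifs. These are the TATA box as TATAAA and the core of the cyclic AMP response element as TGACG. The E-box was searched as CACGTG and the Sp1 type of GC box as GGGCGG. The site of AP-1 was searched as TGANTCA and the half-site of nuclear receptors as AGGTCA.
Ptgs1, chr2:36230176-36230475: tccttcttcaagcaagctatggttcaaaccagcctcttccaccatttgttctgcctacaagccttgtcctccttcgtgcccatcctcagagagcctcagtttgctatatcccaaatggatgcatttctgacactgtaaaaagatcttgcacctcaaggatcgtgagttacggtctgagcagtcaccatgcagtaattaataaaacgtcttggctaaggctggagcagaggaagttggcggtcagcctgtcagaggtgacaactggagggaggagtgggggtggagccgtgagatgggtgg
Ptgs2, chr1:150099781-150100080: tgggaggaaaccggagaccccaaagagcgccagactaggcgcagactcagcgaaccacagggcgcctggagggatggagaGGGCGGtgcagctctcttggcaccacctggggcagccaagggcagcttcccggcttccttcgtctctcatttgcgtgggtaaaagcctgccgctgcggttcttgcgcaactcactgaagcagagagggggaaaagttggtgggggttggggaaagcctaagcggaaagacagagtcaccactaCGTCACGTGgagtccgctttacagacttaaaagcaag
Ptger3, chr3:157566626-157566925: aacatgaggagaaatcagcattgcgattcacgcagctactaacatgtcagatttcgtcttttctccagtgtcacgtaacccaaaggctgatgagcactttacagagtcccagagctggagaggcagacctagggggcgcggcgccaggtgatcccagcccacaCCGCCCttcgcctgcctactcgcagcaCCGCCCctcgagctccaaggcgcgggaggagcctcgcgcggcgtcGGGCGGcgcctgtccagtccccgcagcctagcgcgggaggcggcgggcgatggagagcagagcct
Hpgd, chr8:56294302-56294601: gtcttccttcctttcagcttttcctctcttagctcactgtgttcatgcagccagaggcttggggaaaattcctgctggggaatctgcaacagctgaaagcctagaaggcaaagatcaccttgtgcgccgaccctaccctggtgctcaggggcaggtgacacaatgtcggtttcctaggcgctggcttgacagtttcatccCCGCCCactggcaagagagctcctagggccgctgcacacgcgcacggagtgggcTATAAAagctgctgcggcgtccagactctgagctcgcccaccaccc

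The windows of the 2 cyclooxygenases held different matches, and no link to the RNA levels was tested. No motif of the 6 was matched in the Ptgs1 window, whose GC content was 50.7%. The Ptgs2 window, with a GC content of 59.3%, held a GC box with its first base at -170 from the start, and a cyclic AMP response element core read on the minus strand (first base 14 after the start) that overlaps an E-box at 17. The locus deposited for Ptgs2 begins 93 bases after the RefSeq start, so both of these matches lie upstream of the start that the table used. The Ptger3 window held 3 GC boxes and no other match, at a GC content of 64.0%. The Hpgd window held 1 GC box and a TATAAA that begins 5 bases after the annotated start, at a GC content of 58.0%. Of 32851 promoters of the same length, TATAAA was found in 13.6%, TGACG in 20.8%, CACGTG in 7.15%, GGGCGG in 35.7%, TGANTCA in 7.81% and AGGTCA in 16.3%, with a median GC content of 52.7%. Promoters were found for 9 of the 10 genes, Ptgis being the exception. GGGCGG was matched in 6 of the 9 and each of the other motifs in 1. These are matches of letters, and binding was not measured.

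The terminal synthases did not move together. Ptges (ENSMUSG00000050737.13, chr2:30889471-30929863, minus strand) encodes microsomal prostaglandin E synthase-1, the inducible enzyme that makes prostaglandin E2. Its FPKM was 13.5 (12.6 to 14.3) at D0, from 1003 fragments, and 32.6 (31.2 to 34.0) at D7, from 2061, a ratio of 2.42 (2.24 to 2.61). Ptgis (ENSMUSG00000017969.13, chr2:167191805-167240604, minus strand) encodes prostacyclin synthase. Its FPKM was 66.0 (63.3 to 68.8) at D0, from 2171 fragments, and 32.1 (30.1 to 34.3) at D7, from 898. The ratio was 0.487 (0.450 to 0.527), 2.05-fold lower, and its interval includes the threshold of 0.5. The level of Ptgis was 4.90 times (4.54 to 5.29) that of Ptges at D0 and 0.987 times (0.912 to 1.07) at D7, where the pair did not differ beyond counting error and had the highest levels of the 10 genes. Ptgds (ENSMUSG00000015090.13, chr2:25466709-25470046, minus strand), the lipocalin-type prostaglandin D synthase, was listed at 0 at D0, where 3 fragments would be an FPKM of 0.194. At D7 its FPKM was 0.527 (0.214 to 1.10), from 7 fragments. With D0 set at that limit, D7 was at least 2.73-fold higher, but the counting interval of the ratio begins at 1.70, so a 2-fold difference is not shown for Ptgds.

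Ptges is 1 of 3 genes for prostaglandin E synthases. The others are Ptges2, a membrane-associated form, and Ptges3, a cytosolic form that is also the HSP90 co-chaperone p23. Ptges2 had an FPKM of 9.43 in the D0 library and 49.2 in the D7 library, a ratio of 5.22 (4.87 to 5.60). Ptges3 was at 61.9 and 50.6, a ratio of 0.818 (0.768 to 0.871). Ptges held 15.9% of the summed FPKM of these 3 at D0 and 24.6% at D7, Ptges2 11.1% and 37.2%, and Ptges3 73.0% and 38.2%. The sum was 84.8 at D0 and 132 at D7, so it was higher where the cyclooxygenase sum was lower. These are levels of RNA, and neither enzyme activity nor prostaglandins were measured.

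The receptors are described by the G protein that each is known to use. Ptger3 (ENSMUSG00000040016.16, chr3:157566892-157645888, plus strand) encodes EP3, a prostaglandin E2 receptor that lowers cyclic AMP through Gi. Its FPKM was 0.152 (0.0752 to 0.288) at D0, from 10 fragments, and 5.31 (4.72 to 5.97) at D7, from 288. The ratio was 34.9 (18.2 to 71.4), rank 158 from the highest among 14986 genes. Ptger4 (ENSMUSG00000039942.15, chr15:5206661-5244187, minus strand) encodes EP4, a prostaglandin E2 receptor that raises cyclic AMP through Gs. Its FPKM was 4.07 (3.60 to 4.59) at D0, from 270 fragments, and 2.45 (2.06 to 2.90) at D7, from 138, a ratio of 0.601 (0.486 to 0.741). Ptger4 differed by less than 2-fold, although its counting interval lies below 1 and reaches past 0.5.

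Ptger2 (ENSMUSG00000037759.6, chr14:44988195-45003820, plus strand) encodes EP2, the other prostaglandin E2 receptor coupled to Gs. Its FPKM was 0.0130 at D0, from 1 fragment, and 0.0916 (0.0344 to 0.204) at D7, from 6. The ratio of 7.06 passed 2-fold, but its interval of 0.856 to 325 includes 1, so no difference in Ptger2 was detectable at this depth. It had the lowest level of the 10 genes at D7, and transcripts annotated on the opposite strand (Gm17173 and Gm49364) lie in its locus. Ptgfr (ENSMUSG00000028036.6, chr3:151796502-151837630, minus strand) encodes FP, the receptor of prostaglandin F2α, which couples to Gq. Its FPKM was 2.18 (1.94 to 2.44) at D0, from 301 fragments, and 1.44 (1.23 to 1.67) at D7, from 169. The ratio of 0.659 (0.544 to 0.800) was under 2-fold, and its locus also holds a transcript on the opposite strand (Gm43618).

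Ptger4 and Ptger3 thus exchanged their order between the 2 libraries. At D0 the level of Ptger4 was 26.8 times (13.9 to 54.8) that of Ptger3, and at D7 the level of Ptger3 was 2.17 times (1.76 to 2.68) that of Ptger4. Of the summed FPKM of Ptger2, Ptger3 and Ptger4, Ptger4 held 96.1% (93.1 to 98.0) at D0 and 31.2% (26.9 to 35.8) at D7. Ptger3 held 3.59% (1.73 to 6.50) at D0 and 67.7% (63.0 to 72.0) at D7. The fourth EP receptor gene, Ptger1, which encodes EP1, was listed at an FPKM of 9.79 in the D0 library and 13.8 in the D7 library. With Ptger1 in the sum, Ptger4 held 29.0% (26.3 to 31.9) at D0 and 11.3% (9.61 to 13.2) at D7, and Ptger3 held 1.08% and 24.6%. Leaving out Ptger1 was chosen after its value was seen and changes the gene with the highest level among the EP receptors, which is Ptger1 in both libraries where it is kept. The order of Ptger3 and Ptger4 does not depend on this choice.

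**Figure D3:**
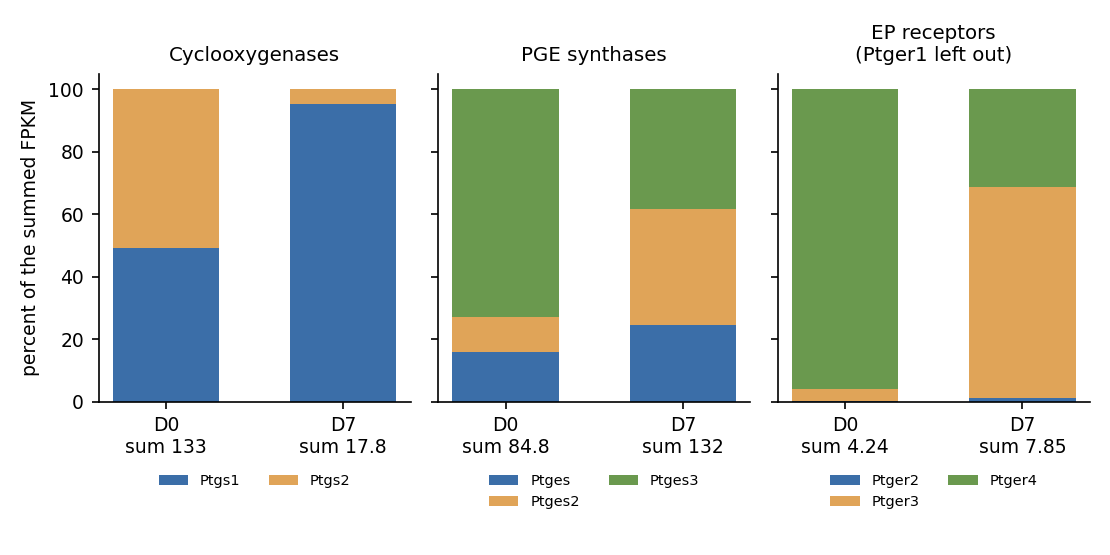
Percent of the summed FPKM held by each gene in the D0 and D7 libraries, for the cyclooxygenases, the prostaglandin E synthases and the EP receptors without Ptger1, with the sum under each bar and no error shown. Ptgs1 goes from 49.1% to 95.1% of the cyclooxygenases, Ptges2 from 11.1% to 37.2% of the synthases, and Ptger3 from 3.59% to 67.7% of the EP receptors, where Ptger2 (0.306% and 1.17%) is barely visible.

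Hpgd (ENSMUSG00000031613.9, chr8:56294585-56321043, plus strand) oxidizes prostaglandins to forms with little activity at their receptors. Its FPKM was 0.242 (0.107 to 0.488) at D0, from 8 fragments, and 4.20 (3.46 to 5.03) at D7, from 115. The ratio was 17.4 (8.31 to 40.2), rank 296 from the highest among 14986 genes. A transcript on the same strand (Gm45540) is annotated within the locus, so fragments of both could have been counted together. Hpgd and Ptger3 had levels that did not differ beyond counting error at D0, where the ratio of Hpgd to Ptger3 was 1.59 (0.542 to 4.44). At D7 the ratio of Ptger3 to Hpgd was 1.26 (1.02 to 1.59).

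The order of the 10 levels differed in part between the libraries, with Ptgis and Ptgs1 at ranks 2 and 3 and Ptger4 directly above Ptgfr in both. At D0, Ptgs2, Ptgis and Ptgs1 stood at the top and neighbours among them did not differ beyond counting error, followed by Ptges, Ptger4 and Ptgfr, while the other four lay below an FPKM of 0.3. At D7, Ptges and Ptgis stood at the top, followed by Ptgs1, Ptger3, Hpgd, Ptger4 and Ptgfr. Ptgs2 and Ptgds came next, with a ratio of 1.65 (0.752 to 4.22) between them that includes 1, and Ptger2 came last.

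The genes that supply arachidonic acid to the cyclooxygenases showed both directions. Of 11 phospholipase genes listed, 7 were above 0 in both libraries, of which 4 were called higher and 1 lower at D7, with a median log2 ratio of 1.27. For this list and those below, the shares over all 14986 genes were 18.5% called higher and 13.2% called lower. Pla2g4a, the cytosolic phospholipase A2 that releases arachidonic acid on calcium signals, was the lower one, with an FPKM of 58.4 in the D0 library and 5.96 in the D7 library and a ratio of 0.102 (0.0902 to 0.115). Its difference had the direction of Ptgs1 and Ptgs2. Pla2g16, an adipocyte phospholipase known to restrain lipolysis by way of prostaglandin E2, had an FPKM of 7.07 in the D0 library and 86.4 in the D7 library, a ratio of 12.2 (11.1 to 13.4). Pla2g12a (14.9 and 60.5) and Pla2g6 (7.82 and 18.8), a secreted and a calcium-independent form, were also called higher. So was Pla2g2e, from 3 fragments at D0 and 11 at D7. The FPKM of Pla2g15, a lysosomal form, was 24.3 and 30.5, under 2-fold.

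Of 10 other genes for prostanoid synthases, 9 were above 0 in both libraries, of which 4 were called higher, 0 lower and 5 neither, with a median log2 ratio of 0.68. Besides Ptges2, these included Cbr1, a carbonyl reductase that can turn prostaglandin E2 into F2α, at an FPKM of 40.8 in the D0 library and 89.3 in the D7 library. Hpgds, the haematopoietic prostaglandin D synthase, was at 0.119 and 1.48, a ratio of 12.4 (6.36 to 31.3). Tbxas1, also called higher, had 4 fragments at D0 and 25 at D7. Akr1b3 and Akr1b8 are aldo-keto reductases of a family with prostaglandin F synthase activity, and Fam213b is a prostamide and prostaglandin F synthase. Akr1b3 (8.90 and 14.3), Akr1b8 (67.2 and 34.9) and Fam213b (26.9 and 37.9) differed by less than 2-fold, as did Ptges3. At D7 the level of Ptgds (0.527) was below that of Hpgds (1.48), the other synthase for prostaglandin D2.

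Of 5 other genes of breakdown and transport, 2 were called higher, 0 lower and 3 neither, with a median log2 ratio of 0.41. Ptgr2 and Zadh2, reductases of 15-keto prostaglandins, the products of Hpgd, were the higher ones. The FPKM of Ptgr2 was 16.4 at D0 and 51.3 at D7, and their ratio was 3.12 (2.91 to 3.36). Zadh2 was at 26.6 and 53.2, a ratio of 2.00 (1.89 to 2.12) that stands at the threshold. Ptgr1, another such reductase, was at 23.3 and 13.8. The uptake transporter Slco2a1 was at 2.59 and 2.37, a ratio of 0.918 (0.786 to 1.07) that includes 1, and the exporter Abcc4 was at 3.26 and 4.34. Thus Hpgd, the enzyme upstream of these reductases, had the larger ratio, while both transporters differed by less than 2-fold.

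Of 6 other receptor genes, 4 were above 0 in both libraries, of which 0 were called higher, 2 lower and 2 neither, with a median log2 ratio of -0.40. Ptgir, the prostacyclin receptor, which couples to Gs, had an FPKM of 3.91 in the D0 library and 1.34 in the D7 library, a ratio of 0.342 (0.260 to 0.440). It was called lower like Ptgis, the gene for the synthase of its ligand. Ptgfrn, a membrane protein that binds and restrains the receptor FP, was at 28.3 and 13.2, a ratio of 0.468 (0.439 to 0.498). Tbxa2r, the thromboxane receptor, was at 11.0 and 13.5. The prostaglandin D2 receptors Ptgdr and Ptgdr2 had at most 1 fragment in each library. The summed FPKM of the receptors known to couple to Gs (Ptger2, Ptger4, Ptgir and Ptgdr), a grouping chosen after the values were seen, was 7.997 at D0 and 3.894 at D7.

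The lipoxygenase branch, which uses the same arachidonic acid, was listed for comparison, together with Ephx2, the soluble epoxide hydrolase, which acts on products of the cytochrome P450 branch. Of these 15 genes, 10 were above 0 in both libraries, of which 4 were called higher, 2 lower and 4 neither, with a median log2 ratio of 0.35. The 2 called lower, Ltb4r1 and Ltb4r2, had at most 8 fragments in each library and intervals that include 1. Cysltr1, among those called higher, had 6 fragments at D0 and 19 at D7. Ltc4s, leukotriene C4 synthase, had an FPKM of 1.59 in the D0 library and 30.3 in the D7 library, a ratio of 19.0 (11.6 to 34.0). Alox5ap, the 5-lipoxygenase activating protein, was at 3.31 and 12.4. Ephx2, 1 of the 4 genes called higher, was at 4.11 and 69.8. Lta4h, leukotriene A4 hydrolase, was at 45.5 and 33.9, under 2-fold. Alox5, the 5-lipoxygenase itself, stayed below an FPKM of 1 in both libraries and was named after its value was seen.

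**Figure D4:**
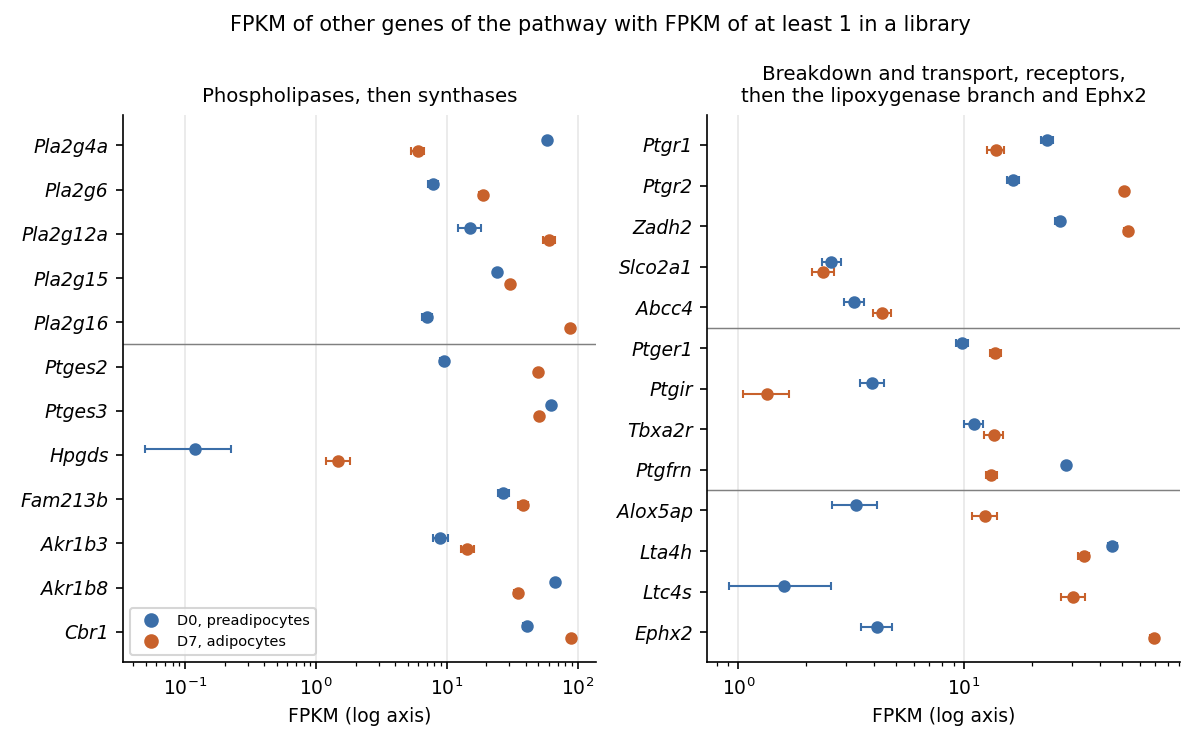
FPKM (log axis) of other genes of the pathway with an FPKM of at least 1 in a library, at D0 (blue) and D7 (orange), with exact 95% Poisson intervals for counting error. Pla2g4a lies at 58.4 at D0 and 5.96 at D7, and Pla2g16, Ptges2, Ltc4s and Ephx2 lie further right at D7.

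Genes of other cell types are given beside these values because some of the 10 genes are also expressed outside adipocytes. Macrophages are known to express Ptgs1, Hpgds, Ptger4, Alox5ap and Ltc4s, among others. These genes are examples and not a full list. The 11 macrophage markers ranged from an FPKM of 0.331 to 111 at D0 and from 1.51 to 286 at D7. The marker Cd14 alone was under 2-fold. Ptgs1 and Ptger4 were lower in the library with the higher macrophage markers, whereas Hpgds, Alox5ap and Ltc4s were higher there. Smooth muscle, which is known for prostacyclin synthase, had 3 of 6 markers called lower (Cnn1, Acta2 and Lmod1) and 1 higher (Rgs5). Myh11 and Des, with ratios of 0.536 and 0.528, differed by less than 2-fold. The summed FPKM was 2513 in the D0 library and 384 in the D7 library, in the direction of Ptgis and Ptgir. Most of both sums was Acta2, at 2164 in the D0 library and 319 in the D7 library. Acta2 and Cnn1 also mark cultured fibroblasts, and preadipocyte markers summed to 1381 and 866, with 2 of 7 called higher and 2 lower. The part of these cells in the differences was not tested. Mast cell markers, of interest for prostaglandin D2, summed to an FPKM of 0.176 in the D0 library and 0.386 in the D7 library, and none of the 7 reached an FPKM of 1. Mcpt4, Tpsb2 and Fcer1a were at 0 in both libraries, Cpa3 and Kit were above 0 at D7 alone, with 6 and 4 fragments, and Cma1 was called lower, from 3 fragments to 1. Endothelial markers summed to 1.58 and 2.62, and 2 of 6 were called higher (Kdr at 0.300 and 0.655, Tek at 0.520 and 1.62) and 1 lower (Cdh5 at 0.159 and 0.0288). Tie1 was at 0 and Pecam1 at 1 fragment in each library. Markers of leptomeningeal and Schwann cells, of interest for Ptgds, summed to 3.76 and 6.81, with 3 of 5 called higher and Slc22a6 at 0 in both libraries.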

How the data were processed

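RNA-Seq was made by the submitters from mRNA isolated out of total RNA, in 2 libraries, 1 at D0 and 1 at D7. The authors removed low-quality, duplicate and rRNA reads, aligned the rest to the mouse genome (mm10) and deposited the level of each gene as 1 FPKM value per library. The aligner is SOAP2 in the methods of the study and Bowtie2 in the submitters' processing notes. Rows that carried no value (3963 of 27324) were left out.

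Ratios of D7 to D0 were computed without a pseudocount or rescaling. Fragments were recovered from 603 single-exon genes of at least 600 bp, whose low values (81 at D0, 89 at D7) were 100% whole within 0.1. For other genes, the transcript length makes the number of fragments approximate. A gene at 0 was set against a limit of 3 fragments. On simulated data of 15407 genes, 200 of 200 changed genes and 0 of 11009 unchanged genes were called, and 96.5% of the intervals held the true fold. The call rates cover only part of the 15407 genes, those with more fragments. The changed genes were set well past 2-fold, with counting noise alone, so these rates were largely fixed by the settings. The intervals used the simulated fragments rather than recovered ones and were scored on the 200 changed genes. Recovery of fragments was therefore not part of that check. Whether the call rates hold for genes with at most 10 fragments in a library, or for ratios near 2-fold, was not tested. A result that bears on the level of Ptger1 is not reported here. Promoters came from RefSeq, and gene loci and overlaps from GENCODE.

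The 10 genes and all lists were chosen with earlier results of these data known. All 10 are named in full, other pathway genes at an FPKM of at least 1 in a library with a few below it, and markers by counts, ranges and a few defining genes. Alternatives were pseudocounts, scalings, filters, thresholds and summed rows. The work was done in Python 3.11.15 with scipy 1.17.1, pandas 2.3.3, numpy 2.4.6 and, for plots, matplotlib 3.10.9.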

Additional observations from a re-analysis of the deposited data

How the results depend on the processing

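No paired analysis was possible because each stage has 1 library, and leaving out a replicate was not possible either. No member's ratio changed direction, but the settings tried could hardly have changed one. A pseudocount added to both libraries cannot reverse a ratio, and summing rows left the members' values as they were. The scalings shifted log2 ratios by -0.35 at most, whereas the members higher at D7 had log2 ratios of at least 1.27. Shares over all genes were computed for the main 2-fold call only, so the member counts under other settings cannot be set against one. The count of members called lower was 3, and it was 1 at 4-fold and 5 at 1.5-fold. The count called higher was 4, or 3 at 4-fold, where Ptges dropped out. It was also 3 where Ptger2 dropped out, with a pseudocount of 1, an FPKM of at least 1, an interval excluding 1, or at least 10 fragments, which was added after seeing the data. With a pseudocount of 0.1 it stayed at 4, but Ptger2 (1.70) fell under 2-fold and Ptgds took its place. Scaling by the library median over all rows with a floor of 0.01 shifted the median log2 ratio of all genes by -0.35. Under it, Ptges (1.89) was no longer called, Ptger4 (0.471) was called lower, and Ptgds passed 2-fold by the floor alone. Pseudocounts and scalings moved the ratio of Ptgs2 between 0.0101 and 0.0272, of Ptger3 between 5.48 and 34.9, and of Hpgd between 4.19 and 17.4. With recovered fragments in place of FPKM, which ignores transcript length, Ptgs1 held 37.7% of the cyclooxygenases at D0 and 92.4% at D7, and Ptger4 22.0% and 8.81% of the EP receptors. With a pseudocount of 1, these shares at D7 were 90.6% and 13.5%. Without Ptger1, added after seeing the data, Ptger4 held 96.1% at D0 and 31.2% at D7. Depth limits Ptger2, Ptgds and the D0 levels of Ptger3 and Hpgd.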
